A study of Mus musculus with 6 samples.

Results

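The proteasome subunit genes of mouse liver were compared between mice infected with an adenoviral vector expressing Mafg (Ad-MAFG) and mice infected with the empty vector (Ad-CMV). Both groups held 3 wild-type C57BL/6 mice aged 10 weeks on the diet labelled NCD, so that all 6 mice had received an adenovirus, and both vectors used a cytomegalovirus promoter, which is not restricted to hepatocytes. Total liver RNA was sequenced after depletion of ribosomal RNA. Members were the protein-coding genes in the deposited table whose symbol starts with Psm, a letter from a to g and a digit, without the immunoproteasome genes Psmb8, Psmb9 and Psmb10. The rule matched 46 of 21255 protein-coding genes. One of them, Psmc3ip, is named for an interaction with an ATPase subunit and encodes a factor of meiotic recombination, so it was set apart, and the other 45 were described as proteasome genes. Psmg3 was not analysed here.

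The proteasome degrades proteins that carry ubiquitin chains. Its barrel-shaped core, the 20S particle, is built from rings of alpha subunits, which gate the entry, and rings of beta subunits, of which PSMB5, PSMB6 and PSMB7 hold the active sites. The 19S cap recognises ubiquitin, removes it with a lid subunit, and unfolds the substrate with a ring of ATPases. In mammalian cells the transcription factor NRF1, encoded by Nfe2l1, pairs with small MAF proteins such as MAFG and activates proteasome genes through antioxidant response elements when the proteasome is impaired.

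The table gives 1 FPKM value per group (fragments per kilobase of transcript, scaled to the mapped fragments of the library), pooled by the authors over the mice of the group. It holds 0 columns of per-mouse values, so library depth is unknown, neither an SD nor a test can be given, and whether a difference exceeds the spread between mice was not tested. Log2 ratios were computed as Ad-MAFG over Ad-CMV after adding 0.1 FPKM to both values, which understates the differences of low genes. A gene stood as its listed transcript with the highest mean FPKM, and genes with a mean of at least 1 FPKM over both groups were kept. This left 35 proteasome genes and 7168 protein-coding genes in all. Each number is a value of 1 listed transcript, not of the whole gene, since a locus can hold more transcripts than the first, which were not used here. In 17 of the 35 the transcript lay on the strand opposite to the gene, as inferred from the numbering of the loci, against 71.0% of all kept genes. Reads of overlapping genes can enter a value on either strand. Another annotated gene lay on the strand of the transcript in 6 of the 17 opposite-strand members and in 5 of the 18 gene-strand members. The group labels could not be checked with Mafg, which was not analysed here. The 6 hepatocyte markers summed to 6727 FPKM in Ad-MAFG and 6552 FPKM in Ad-CMV, and 3 of the 5 kept were lower by 1.5-fold: Serpina1c (log2 ratio -1.46), Apoa1 (-1.27) and Fgb (-0.70). Apob had a log2 ratio of -0.32, and Alb was the only one with a higher value, 5603 FPKM in Ad-MAFG against 4310 FPKM in Ad-CMV, while the listed transcript of Ttr was under 1 FPKM in both groups. Markers of other liver cells differed too, with stellate markers summing to 146 FPKM in Ad-MAFG and 77.6 FPKM in Ad-CMV (3 of 4 higher by 1.5-fold), cholangiocyte markers to 46.0 FPKM in Ad-MAFG and 14.4 FPKM in Ad-CMV (3 of 3 kept genes higher, Krt7 listed at 0) and endothelial markers to 28.6 FPKM in Ad-MAFG and 32.8 FPKM in Ad-CMV (0 of 4 past 1.5-fold). Their part in the values of the proteasome genes was not tested.

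Proteasome genes lay low in the distribution of ratios. The median log2 ratio was -0.27 for the 35 proteasome genes, against -0.05 for all protein-coding genes. The distance depended on the strand of the listed transcript. For genes listed on their own strand the medians were -0.25 (18 members) and -0.13 (2080 genes in all). For those listed on the opposite strand they were -0.27 (17 members) and -0.02 (5088 genes in all). Set against the median of all genes, which no rescaling of a column can change, 27 of 35 lay below it, where 50% of all genes do by construction, and their median was -0.22. In FPKM as deposited, 29 of 35 had a lower value in Ad-MAFG than in Ad-CMV, against 56.3% of all genes. When the columns were scaled to the same sum over protein-coding rows, this fell to 12 of 35. The median was then 0.065 for the proteasome genes and 0.29 for all genes. That scaling added 0.34 to every log2 ratio. Kept genes at 20 FPKM or more summed to 59891 FPKM in Ad-MAFG and 83618 FPKM in Ad-CMV. Those at 1 to 5 FPKM summed to 11930 FPKM in Ad-MAFG and 11972 FPKM in Ad-CMV. The middle 50% of the proteasome genes covered log2 ratios of -0.36 to -0.09, against -0.29 to 0.19 for all genes. Summed over the 35 listed transcripts, the level was 458 FPKM in Ad-MAFG and 543 FPKM in Ad-CMV.

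Few members passed a set fold. At 1.5-fold, 2 of 35 were lower (Psmd6 and Psmd9), against 10.4% of all genes, and 1 was higher (Psmc1), against 8.82%. Both lower calls were lost with a pseudocount of 1, when centred on the median of all genes and when scaled to the sum over protein-coding rows or over all rows. The scaling to all rows added 0.94 to the log2 ratio of every gene, and 25 members were then higher by 1.5-fold. The median under it was 0.66 for the members and 0.88 for all genes, so the members still lay lower. The share of all genes past the fold was not computed there. At a smaller difference of 0.32 or more on the log2 scale, 13 were lower, against 22.3% of all genes, and 2 were higher, against 17.5%. In FPKM as deposited, the share of members past 1.5-fold was no larger than the background in either direction. At the smaller difference, in the same FPKM, the lower share was above the background and the higher share below it. This depended on scaling too. Centred on the median of all genes, Psmd14, Psmc6, Psma1, Psmd4 and Psmc2 (-0.276 to -0.315) no longer reached 0.32 on the lower side. Psmd10 (0.336) then reached it on the higher side. The shares of all genes were not computed after centring. In bulk liver RNA, fewer cells of a type and less RNA per cell cannot be told apart.

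**Figure D1:**
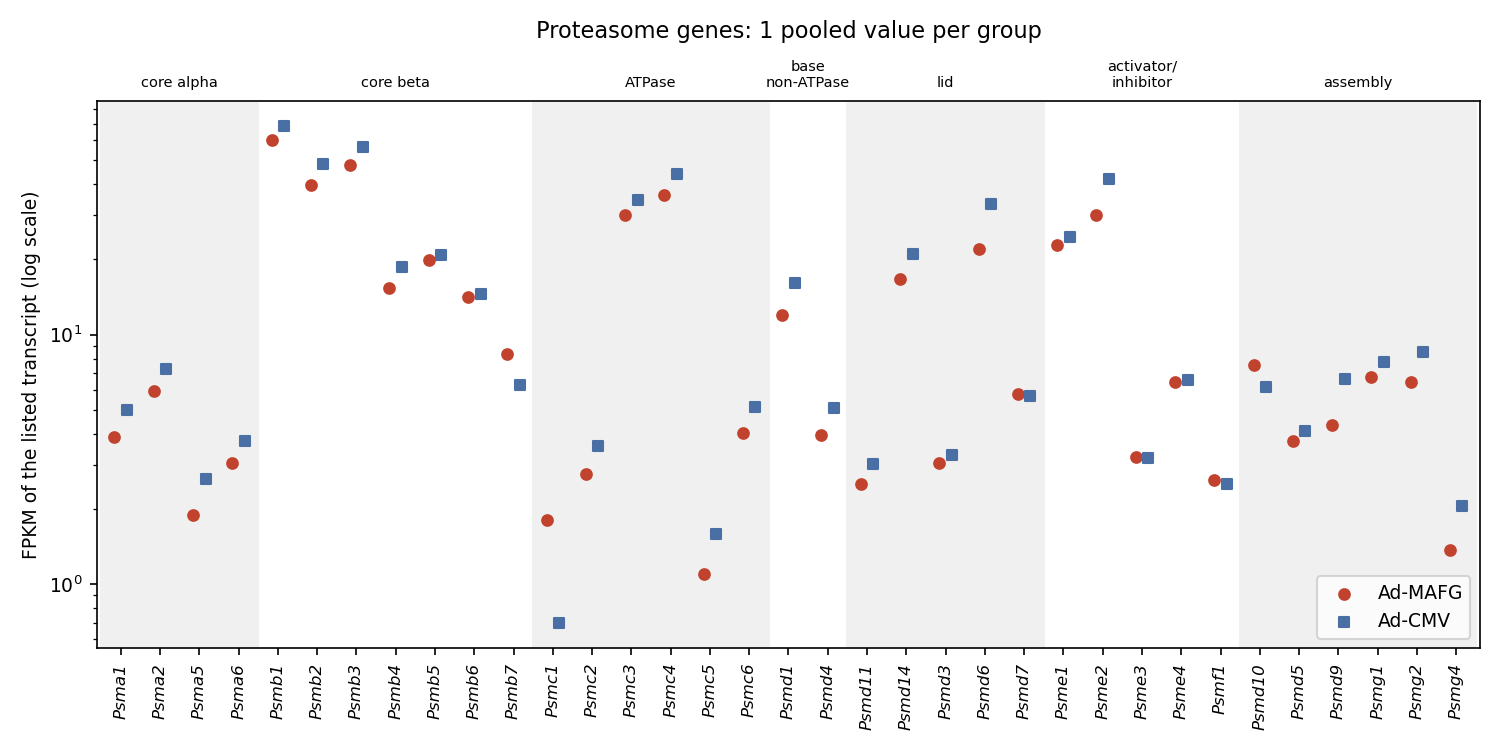
FPKM of the listed transcript (log scale) of the 35 kept proteasome genes by class, with a circle for Ad-MAFG and a square for Ad-CMV, each 1 pooled value without an error. The circle lies below the square in 29 of 35 genes in FPKM as deposited. The count was 12 after scaling to the sum over protein-coding rows, where the median log2 ratio of all genes was 0.29. Levels ran up to 60.0 FPKM in Ad-MAFG and 68.8 FPKM in Ad-CMV for Psmb1.

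The 3 members with the most abundant listed transcripts were structural beta subunits of the core, Psmb1, Psmb3 and Psmb2. Psmb1 (chromosome 17, 15475721 to 15498276, GRCm38), a structural beta subunit, had 60.0 FPKM in Ad-MAFG and 68.8 FPKM in Ad-CMV (log2 ratio -0.20). Psmb2, a further beta subunit without an active site, had 39.8 FPKM in Ad-MAFG and 48.1 FPKM in Ad-CMV (log2 ratio -0.27). Psmb3 had 48.0 FPKM in Ad-MAFG and 56.6 FPKM in Ad-CMV (log2 ratio -0.24). These 3 structural subunits and Psmb4, at 15.4 FPKM in Ad-MAFG and 18.6 FPKM in Ad-CMV on a transcript opposite to the gene, had ratios between -0.27 and -0.20. Psmb5, the chymotrypsin-like subunit, had 19.8 FPKM in Ad-MAFG and 20.9 FPKM in Ad-CMV (log2 ratio -0.07). Psmb6, the caspase-like subunit, had 14.1 FPKM in Ad-MAFG and 14.5 FPKM in Ad-CMV (log2 ratio -0.04), on a transcript opposite to the gene and annotated as a retained intron. Psmb7, the trypsin-like subunit, was the only beta subunit with a higher value in Ad-MAFG, 8.32 FPKM against 6.26 FPKM in Ad-CMV (log2 ratio 0.40). In FPKM as deposited the 3 active-site genes had the 3 highest ratios of the 7 kept beta genes, but on gene-strand transcripts Psmb4 (0.13) lay above Psmb5 (-0.07), and no test of the order was possible. Psmb11, the beta subunit of the thymus, was listed at 0 in Ad-MAFG and at 0.00270 FPKM in Ad-CMV.

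Among the alpha subunits, which form the outer rings of the core, all 4 kept genes had lower values in Ad-MAFG in FPKM as deposited. Psma5 had 1.90 FPKM in Ad-MAFG and 2.63 FPKM in Ad-CMV (log2 ratio -0.45). Psma1 had 3.89 FPKM in Ad-MAFG and 4.99 FPKM in Ad-CMV (log2 ratio -0.35). Psma2 and Psma6 had log2 ratios of -0.29 each. All 4 values came from transcripts opposite to the gene, and none reached 8 FPKM in either group. Over the 11 kept core genes the median log2 ratio was -0.27, and 10 of 11 had a lower value in Ad-MAFG in FPKM as deposited. On gene-strand transcripts alone the core median was -0.073, and scaled to the sum over protein-coding rows it turned to 0.065.

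The ATPases, which form the ring that unfolds substrates, had a median log2 ratio of -0.31 over 6 genes. Psmc4 had 36.1 FPKM in Ad-MAFG and 43.8 FPKM in Ad-CMV (log2 ratio -0.28), and Psmc3 had 30.1 FPKM in Ad-MAFG and 34.6 FPKM in Ad-CMV (log2 ratio -0.20). These were the only ATPases with an abundant listed transcript. Psmc6 had 4.01 FPKM in Ad-MAFG and 5.13 FPKM in Ad-CMV (log2 ratio -0.35, opposite strand). Psmc2, listed with a retained intron on the opposite strand, had 2.76 FPKM in Ad-MAFG and 3.58 FPKM in Ad-CMV (log2 ratio -0.37). Psmc5 had 1.10 FPKM in Ad-MAFG and 1.59 FPKM in Ad-CMV (log2 ratio -0.50). Psmc1 (chromosome 12, 100110186 to 100123364) ran the other way, with 1.81 FPKM in Ad-MAFG and 0.695 FPKM in Ad-CMV, a log2 ratio of 1.26 and the only member higher by 1.5-fold. Its listed transcript is the first of 2 numbered at the locus, and its level was far under that of Psmc3 and Psmc4. Of all kept genes, 97.6% had a lower ratio than Psmc1. On gene-strand transcripts at loci with at most 5 transcripts only Psmc1 and Psmc5 remained of the ATPases, and the median of the ring turned to 0.38; scaled to the sum over protein-coding rows the median of all 6 was 0.024.

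In the rest of the 19S cap, the base subunits PSMD1 and PSMD4 and the lid, 6 of 7 kept genes had a lower value in Ad-MAFG in FPKM as deposited, with a median log2 ratio of -0.33 that turned to 0.0097 when scaled to the sum over protein-coding rows. Psmd6 (chromosome 14, 14112184 to 14120984), a lid subunit also called RPN7, had 22.0 FPKM in Ad-MAFG and 33.4 FPKM in Ad-CMV, a log2 ratio of -0.60. It had the lowest ratio among kept members with a transcript on the strand of the gene, and 10.0% of all kept genes had a lower one. Its listed opposite-strand transcript had 5.70 FPKM in Ad-MAFG and 7.94 FPKM in Ad-CMV (log2 ratio -0.47). Psmd14, the lid enzyme that cuts ubiquitin from the substrate, had 16.7 FPKM in Ad-MAFG and 21.04 FPKM in Ad-CMV (log2 ratio -0.33). Psmd1, a large scaffold of the base, had 12.004 FPKM in Ad-MAFG and 16.1 FPKM in Ad-CMV (log2 ratio -0.42). Psmd4, a ubiquitin receptor listed with a retained intron, had 3.94 FPKM in Ad-MAFG and 5.06 FPKM in Ad-CMV (log2 ratio -0.35). Psmd11 and Psmd3, also listed with retained introns, had log2 ratios of -0.26 and -0.11. The values of Psmd4, Psmd11 and Psmd3 came from transcripts opposite to the gene, and their gene-strand transcripts were under 1 FPKM in both groups. For Psmd3 the gene-strand transcript had 0.440 FPKM in Ad-MAFG and 0.621 FPKM in Ad-CMV (log2 ratio -0.42). Psmd7, the partner of PSMD14 in the lid, had 5.77 FPKM in Ad-MAFG and 5.67 FPKM in Ad-CMV (log2 ratio 0.03).

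**Figure D2:**
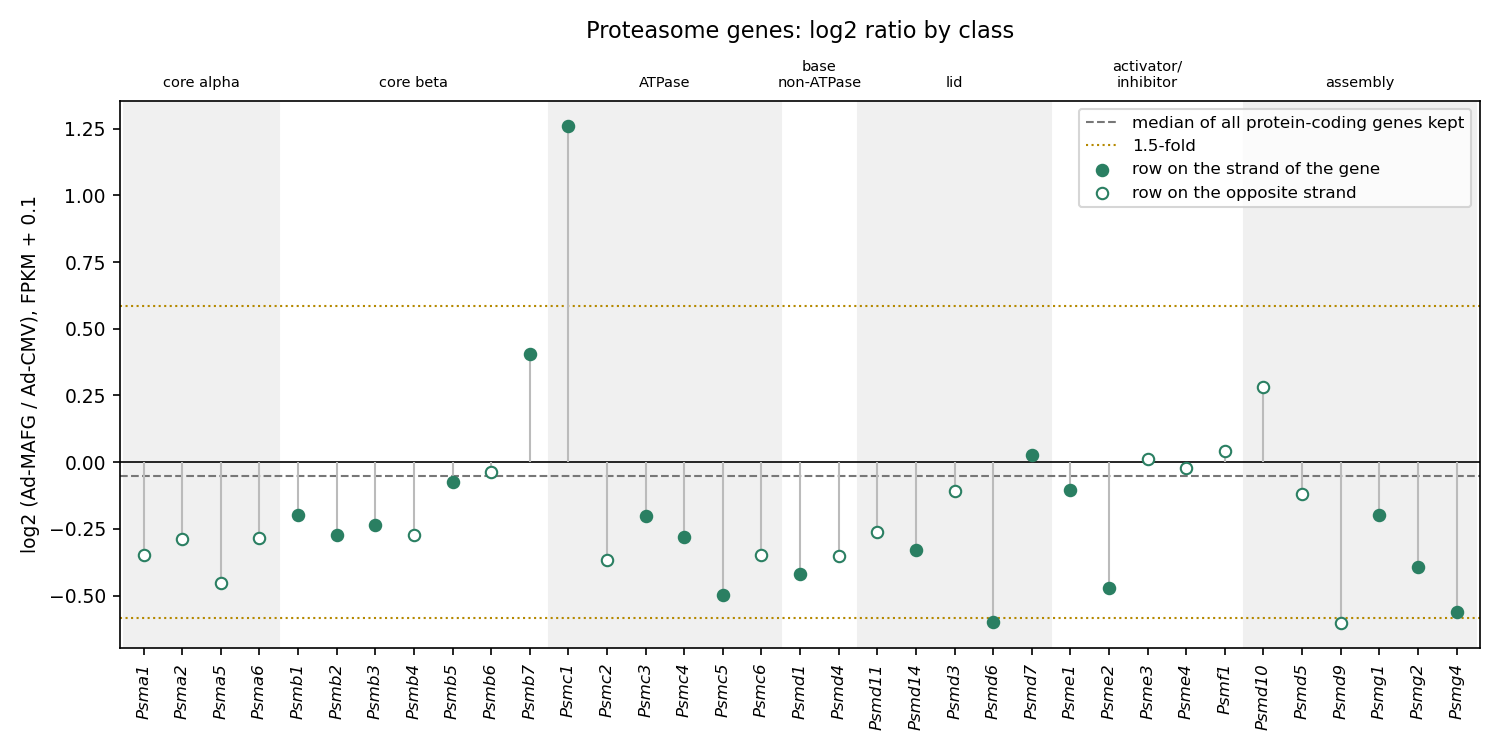
Log2 ratio of Ad-MAFG over Ad-CMV (FPKM plus 0.1) of the 35 kept proteasome genes by class, with filled points for transcripts on the strand of the gene, open points for the opposite strand, a dashed line at the median of all protein-coding genes (-0.05) and dotted lines at 1.5-fold. Psmd6 and Psmd9 lie past the lower dotted line and Psmc1 past the upper one; scaling to the sum over protein-coding rows would move every point and the dashed line up by 0.34.

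Activators and inhibitors bind the core in place of the 19S cap or block it. Of the 5 kept genes, Psme2 had the lowest ratio, and the other 4 lay between -0.11 and 0.04 on the log2 scale in FPKM as deposited. Psme2, a subunit of the interferon-inducible PA28 activator, had 30.2 FPKM in Ad-MAFG and 41.9 FPKM in Ad-CMV (log2 ratio -0.47). Psme1, its partner subunit, had 22.9 FPKM in Ad-MAFG and 24.7 FPKM in Ad-CMV (log2 ratio -0.11). The nuclear activators Psme3 and Psme4 had log2 ratios of 0.01 and -0.02, and the inhibitor Psmf1, also called PI31, had 0.04. The values of Psme3, Psme4 and Psmf1 came from transcripts opposite to the gene, and those of Psme1 and Psme2 from the strand of the gene. The gene-strand transcripts of Psme3, Psme4 and Psmf1 were under 1 FPKM in both groups. Psme4 had 0.370 FPKM in Ad-MAFG and 0.486 FPKM in Ad-CMV there (log2 ratio -0.32), and Psme3 had 0.0350 FPKM and 0.307 FPKM. Psme3 had 3.23 FPKM in Ad-MAFG and 3.20 FPKM in Ad-CMV, and Psmf1 had 2.599 FPKM in Ad-MAFG and 2.52 FPKM in Ad-CMV. The immunoproteasome subunits, which interferon induces together with PA28 and which are no members here, had 6.80 FPKM in Ad-MAFG and 11.6 FPKM in Ad-CMV for Psmb9 (log2 ratio -0.76), and 6.60 FPKM in Ad-MAFG and 8.72 FPKM in Ad-CMV for Psmb8 (log2 ratio -0.40). Psmb10 was not analysed here. Immune cells are rich in these subunits. The 5 listed T and NK cell markers summed to 5.87 FPKM in Ad-MAFG and 8.75 FPKM in Ad-CMV, with 2 of 3 kept markers lower by 1.5-fold (Gzmb and Prf1). Nkg7 had a log2 ratio of -0.08, and Cd8a was under 1 FPKM in both groups. Cd3e, also under the minimum mean, went the other way, with 1.10 FPKM in Ad-MAFG and 0.792 FPKM in Ad-CMV. The 5 macrophage markers summed to 70.3 FPKM in Ad-MAFG and 42.5 FPKM in Ad-CMV, with 1 of 4 kept markers higher by 1.5-fold. The part of these cells in the ratio of Psme2 was not tested.

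The assembly factors, chaperones that hold unfinished core or base particles and are absent from the finished enzyme, had a median log2 ratio of -0.30 over 6 genes. Psmg2, in the chaperone pair that starts the alpha ring, had 6.45 FPKM in Ad-MAFG and 8.51 FPKM in Ad-CMV (log2 ratio -0.39). Psmg1, its partner, had 6.77 FPKM in Ad-MAFG and 7.78 FPKM in Ad-CMV (log2 ratio -0.20). Psmg4 had 1.36 FPKM in Ad-MAFG and 2.06 FPKM in Ad-CMV (log2 ratio -0.56). Psmd9, a chaperone of the base, had 4.33 FPKM in Ad-MAFG and 6.63 FPKM in Ad-CMV (log2 ratio -0.60). The Psmd9 value is uncertain, because its transcript lies on the strand of 3 other annotated genes that overlap the span of Psmd9 (chromosome 5, 123169413 to 123250131). The lincRNA Gm26745 shares 61459 bases with that span, Hpd, an enzyme of tyrosine breakdown, 10921 bases and the lincRNA Gm43409 2888 bases. The listed transcript of Hpd had 5.3e-20 FPKM in Ad-MAFG and 3.0e-15 FPKM in Ad-CMV. The part of these genes in the Psmd9 value was not tested. Psmd10, the base chaperone gankyrin, was the only assembly factor with a higher value in Ad-MAFG, 7.53 FPKM against 6.17 FPKM in Ad-CMV (log2 ratio 0.28). Psmd5, a further base chaperone, had a log2 ratio of -0.12. Over the 11 kept activators, inhibitors and assembly factors the median log2 ratio was -0.12, which turned to 0.22 when scaled to the sum over protein-coding rows.

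The 10 proteasome genes under the minimum were Psma3, Psma4, Psma7, Psma8, Psmb11, Psmd2, Psmd8, Psmd12, Psmd13 and Psme2b. For 7 of them the listed transcript lies on the strand of the gene at a locus with 6 or more numbered transcripts, so that a low value says little of the gene. Psma8, the alpha subunit of the testis, had 0.929 FPKM in Ad-MAFG and 0.821 FPKM in Ad-CMV on a transcript opposite to the gene. Its gene-strand transcript had 0.0803 FPKM in Ad-MAFG and 0.0687 FPKM in Ad-CMV. Psmd12, a lid subunit, had 0.213 FPKM in Ad-MAFG and 0.440 FPKM in Ad-CMV. Psmd2, a ubiquitin-binding base subunit, was listed with an opposite-strand transcript annotated for nonsense-mediated decay, at 0.269 FPKM in Ad-MAFG and 0.419 FPKM in Ad-CMV. Psmc3ip, set apart from the subunits, had 9.58 FPKM in Ad-MAFG and 9.79 FPKM in Ad-CMV (log2 ratio -0.03).

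The ratios were also compared within bands of level. Among all protein-coding genes the median log2 ratio was -0.02 at mean levels of 1 to 5 FPKM, -0.12 at 5 to 20 FPKM and -0.25 at 20 FPKM or more. The medians of the proteasome genes in the same bands were -0.32 (14 genes), -0.23 (12 genes) and -0.24 (9 genes). At 20 FPKM or more, 9 of 9 members had a lower value in Ad-MAFG in FPKM as deposited, against 72% of the 535 genes at that level, while the median of the members was that of the other genes to within 0.01. At 1 to 5 FPKM 11 of 14 had a lower value, against 51.9%, and at 5 to 20 FPKM 9 of 12, against 64.3%. These counts hold for FPKM as deposited. The median of the proteasome genes thus lay below that of all genes in the low and middle bands, and not in the highest one. No test of a difference between bands was possible. Level and strand went together among the members. At 1 to 5 FPKM 3 were on the gene strand and 11 on the opposite strand, at 5 to 20 FPKM 6 and 6, and at 20 FPKM or more 9 and 0. A difference between bands and one between strands cannot be told apart here. The spread of the abundant members was small, with a middle 50% of -0.28 to -0.20 against -0.63 to 0.05 for all genes at that level.

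**Figure D3:**
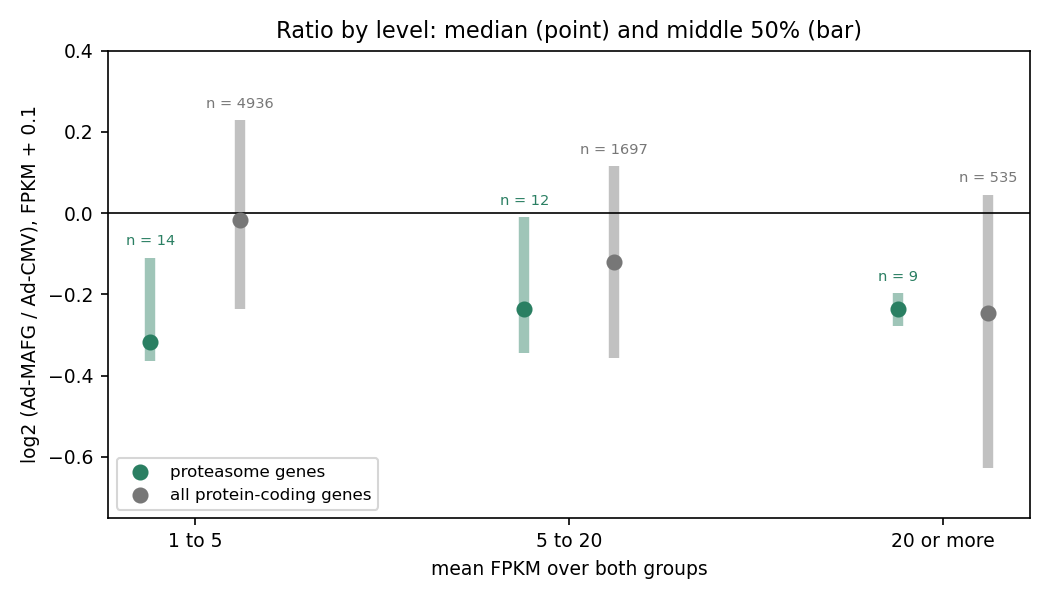
Median (point) and middle 50% (bar) of the log2 ratio of Ad-MAFG over Ad-CMV, on the y axis, for proteasome genes (green) and all protein-coding genes (grey) in 3 bands of mean FPKM, in FPKM as deposited. The medians lie apart at 1 to 5 FPKM (-0.32 and -0.02) and together at 20 FPKM or more (-0.24 and -0.25); a rescaling of the columns would move all points by the same amount.

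Transcripts on both strands gave a second reading of 12 members from the same pooled libraries. In 8 of the 12 the gene-strand value was the higher one, and there the opposite-strand level had a median of 17.6% of it, with 5.85% for Psmb1, 5.52% for Psmb2 and 3.27% for Psmb3. Of the 12, 8 had a lower value in Ad-MAFG on both strands in FPKM as deposited. Psmd10 was higher in Ad-MAFG on both, with log2 ratios of 0.14 on the gene strand and 0.28 on the opposite strand. Psmb4, Psmb6 and Psmd7 differed in direction. Psmb6 had 3.08 FPKM in Ad-MAFG and 2.09 FPKM in Ad-CMV on the gene strand (log2 ratio 0.54), against -0.04 on the more abundant opposite strand. Psmb4 had 1.40 FPKM in Ad-MAFG and 1.27 FPKM in Ad-CMV on the gene strand (log2 ratio 0.13), against -0.27 on the opposite strand. The readings of 1 gene thus differed by up to 0.57 on the log2 scale, more than the offset of the whole list from all genes. They share their libraries and are no replicates.

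**Figure D4:**
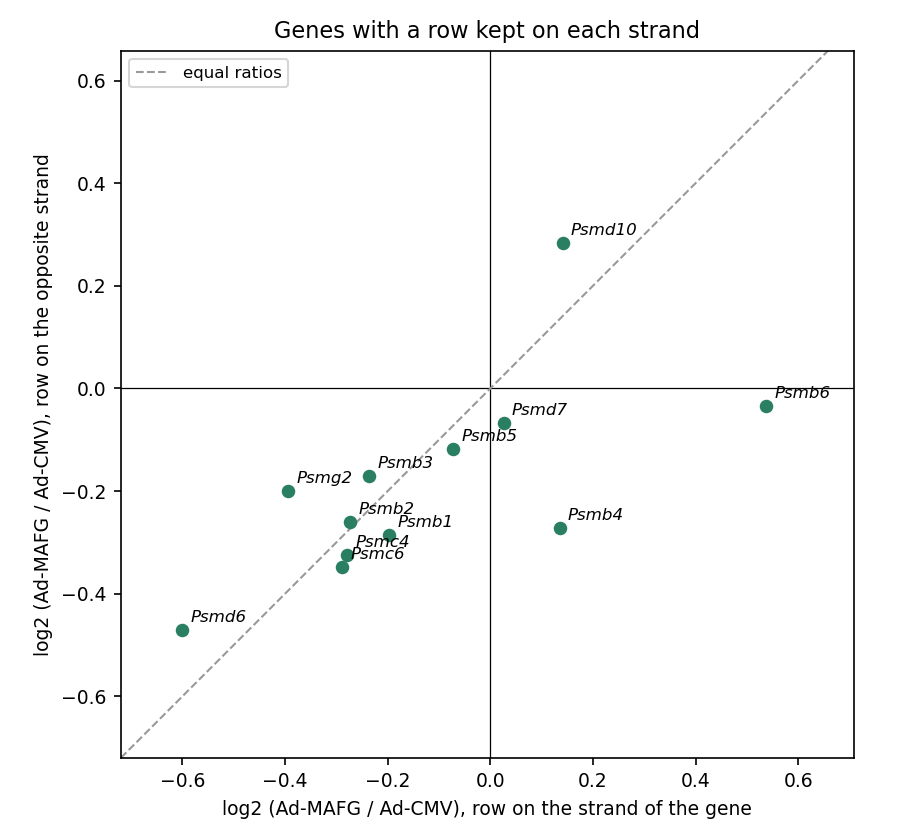
Log2 ratio of Ad-MAFG over Ad-CMV on the transcript assembled on the strand of the gene (x axis) and on the opposite strand (y axis) for the 12 members with both kept, in FPKM as deposited. Most points lie near the dashed line of equal ratios, while Psmb6 (0.54 and -0.04) and Psmb4 (0.13 and -0.27) lie right of it.

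Genes that work with the proteasome were taken from a list of ubiquitin genes, shuttle factors, cofactors of the segregase p97, proteasome-bound proteins, immunoproteasome subunits and controlling factors. Of 25 kept genes, 1 was lower by 1.5-fold (Psmb9) and 2 were higher (Nfe2l2 and Ubqln2), against 10.4% and 8.82% of all genes. The median log2 ratio of the list was -0.21, which turned to 0.12 when scaled to the sum over protein-coding rows. Nfe2l1 had 9.09 FPKM in Ad-MAFG and 9.83 FPKM in Ad-CMV (log2 ratio -0.11, opposite strand). Ddi2, the protease that activates NRF1, had 10.8 FPKM in Ad-MAFG and 12.8 FPKM in Ad-CMV (log2 ratio -0.24, opposite strand). Nfe2l2, which encodes NRF2, a further partner of small MAF proteins, had 13.7 FPKM in Ad-MAFG and 7.14 FPKM in Ad-CMV (log2 ratio 0.93). Pomp, the chaperone that completes the core, had 2.84 FPKM in Ad-MAFG and 3.48 FPKM in Ad-CMV (log2 ratio -0.28). The lid subunit gene Shfm1 and the proteasome adaptor gene AI314180, both listed under older symbols and outside the name rule, had log2 ratios of -0.26 and -0.30 on opposite-strand transcripts. Ubqln2, a shuttle that carries ubiquitinated proteins to the proteasome, had 9.43 FPKM in Ad-MAFG and 4.76 FPKM in Ad-CMV (log2 ratio 0.97), while its relative Ubqln1 had 4.89 FPKM in Ad-MAFG and 5.13 FPKM in Ad-CMV (log2 ratio -0.07). Both came from opposite-strand transcripts.

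Promoters were read because NRF1 with a small MAF partner binds antioxidant response elements. RefSeq promoter windows (GRCm38.p6, 250 bases before to 50 after the start site) matched 28 of the 35 kept members by symbol. The core letters TGACNNNGC, searched on both strands, were in 5 of 28 (17.9%), against 16.7% of 5458 kept protein-coding genes and 14.0% of all 27025 genes with a window. The share among proteasome genes was near the background. The 5 sites are shown with 10 bases on each side, the matched letters in capitals, since they are where this element could be looked for:
Psmb5, chr14:54618024-54618052, minus strand: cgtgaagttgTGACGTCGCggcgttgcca
Psmb6, chr11:70525338-70525366, plus strand: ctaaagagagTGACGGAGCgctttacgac
Psmc6, chr14:45329587-45329615, plus strand: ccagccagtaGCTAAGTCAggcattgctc
Psmd9, chr5:123228149-123228177, plus strand: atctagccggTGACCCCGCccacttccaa
Psme4, chr11:30771758-30771786, plus strand: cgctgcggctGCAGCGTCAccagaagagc

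Of the 5 genes, the log2 ratios of Psmb5 (-0.07), Psmb6 (-0.04) and Psme4 (-0.02) were among those nearest to the median of all genes, while Psmc6 had -0.35 and Psmd9 -0.60. The median was -0.07 over the 5 members with the letters and -0.29 over the 23 without, in FPKM as deposited. Of the 5, only the Psmb5 value came from a transcript on the strand of the gene. On gene-strand transcripts Psmb6 had a log2 ratio of 0.54 and Psmc6 -0.29, while those of Psmd9 and Psme4 were under 1 FPKM. The medians therefore do not measure transcription from these windows. The CCAAT box, bound by NF-Y, was in 10 of 28 members (35.7%) on either strand, against 42.7% of kept protein-coding genes, with medians of -0.29 with it and -0.28 without. Among the members with it, the values of Psma1, Psma2, Psma6, Psmc2, Psmd4, Psmd10 and Psme3 came from opposite-strand transcripts. No member had both motifs. A match describes these letters only.

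The windows of the 3 members past 1.5-fold are shown whole, with matches of either motif in capitals. Psmc1, the only one higher in Ad-MAFG, held 1 CCAAT box, Psmd9 held the TGACNNNGC letters once, and Psmd6 held neither:
Psmc1, chr12:100109952-100110251, plus strand: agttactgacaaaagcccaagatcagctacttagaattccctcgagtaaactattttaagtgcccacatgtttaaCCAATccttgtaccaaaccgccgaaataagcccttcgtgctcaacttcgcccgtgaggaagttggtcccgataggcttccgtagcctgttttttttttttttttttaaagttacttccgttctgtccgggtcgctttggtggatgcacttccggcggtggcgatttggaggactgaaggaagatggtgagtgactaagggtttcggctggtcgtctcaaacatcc
Psmd6, chr14:14120896-14121195, minus strand: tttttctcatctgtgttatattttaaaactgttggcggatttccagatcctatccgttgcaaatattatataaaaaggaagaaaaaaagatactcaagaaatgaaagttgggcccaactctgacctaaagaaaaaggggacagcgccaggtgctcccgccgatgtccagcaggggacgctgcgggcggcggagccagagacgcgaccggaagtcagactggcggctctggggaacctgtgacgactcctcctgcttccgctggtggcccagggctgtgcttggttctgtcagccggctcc
Psmd9, chr5:123227940-123228239, plus strand: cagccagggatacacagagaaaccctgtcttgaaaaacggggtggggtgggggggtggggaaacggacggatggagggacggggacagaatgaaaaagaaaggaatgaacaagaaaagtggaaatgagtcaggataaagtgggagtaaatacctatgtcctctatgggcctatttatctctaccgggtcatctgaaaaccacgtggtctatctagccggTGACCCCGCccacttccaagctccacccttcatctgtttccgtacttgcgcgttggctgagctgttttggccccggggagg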

How the data were processed

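Per the labels and the study's methods, rRNA-depleted total RNA of 3 livers per group was sequenced as strand-specific paired reads; rRNA reads were removed with Bowtie2 2.2.9, the rest was aligned to mm10 (GRCm38) with STAR 2.6.0c, and transcripts were assembled and compared with Cufflinks 2.2.1 and Cuffdiff. A legend of the study gives another number of mice for this experiment. The deposited table (68997 rows, 47 columns) holds 1 FPKM value per group, computed by the authors, and 0 columns per mouse, so depth, SD and tests per mouse could not be had. Its columns of fold changes, test statistics, p-values and q-values hold the authors' own comparison and were not used.

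With Python 3.11.15 and pandas 2.3.3, each Ensembl gene was represented by its row with the highest mean FPKM, kept at a mean of at least 1, and its log2 ratio taken with a pseudocount of 0.1. The row choice and the ratios were tested on simulated data. Rows list the first transcript of each numbered locus. Locus numbers run first over the plus and then over the minus strand of a chromosome, from which the strand of a row was inferred. Overlapping genes came from GENCODE M21 (GRCm38), and promoters from RefSeq. Values were printed for the active-site subunits, the 2 highest and lowest ratios of each class and every member past 1.5-fold, and further members were added. Members and lists were chosen with earlier results of these data known.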

Additional observations from a re-analysis of the deposited data

How the results depend on the processing

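Depth per library is unknown and each group is 1 pooled value, so no replicate could be left out, and a move of 0.1 on the log2 scale was taken as a change because no spread is available. No paired analysis was possible because the columns carry no replicate. Directions depended on scaling. Scaled to the sum over all rows, which adds 0.94 to every log2 ratio and rests on rows without a gene (the largest had 1009660 FPKM in Ad-MAFG and 1482920 FPKM in Ad-CMV), the median log2 ratio was 0.66 for the proteasome genes, 0.66 for the core, 0.62 for the ATPases, 0.61 for the base and lid, 0.82 for activators, inhibitors and assembly factors and 0.72 for the other list, with 0 genes lower and 25 higher by 1.5-fold, Psmd6 at 0.34 and Psmd9 at 0.33. Scaled to the sum over protein-coding rows (added after seeing the data), the same medians were 0.065, 0.065, 0.024, 0.0097, 0.22 and 0.12, with 0 lower and 3 higher. The count lower by 1.5-fold, 2 as reported, was 0 with a pseudocount of 1, 0 when centred on the median of all genes, 4 without a filter, and 1 with all rows of a gene added, with gene-strand rows, with opposite-strand rows, at loci with room for 1 transcript, and with gene-strand rows at loci with at most 5 transcripts (added after seeing the data). The count higher, 1 as reported, was 0 at a mean FPKM of at least 5, with opposite-strand rows and at loci with room for 1 transcript. At 0.32 or more on the log2 scale 13 were lower and 2 higher, and at 2-fold 0 lower and 1 higher. With gene-strand rows the core median was -0.073 and that of activators, inhibitors and assembly factors -0.30. With gene-strand rows at loci with at most 5 transcripts they were -0.14 and -0.30, and the ATPase median turned to 0.38. Apart from both sum scalings, the median of the proteasome genes stayed between -0.27 and -0.20 under the alternatives run. It lay below that of all kept genes under each alternative, including both sum scalings. There the medians of all kept genes were 0.88 (sum over all rows) and 0.29 (sum over protein-coding rows).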
